A study of Mus musculus with 30 samples.

Results

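The genes described here are 44 genes of M phase, the part of the cell cycle in which a cell condenses its chromosomes, divides them on a spindle and splits in 2. They were taken by name from a list of mitosis and chromosome segregation genes. That list was chosen with earlier results of these data known, so the values below are a description and not an independent test. All 44 were found in the count tables of both tissues, which hold 53278 rows for the SVZ and 50508 rows for the striatum. Of these 44 members, 43 passed a filter of more than 1 CPM (a count scaled to the size of its library) in at least 3 libraries of the SVZ, and 34 passed it in the striatum, against 16375 and 15419 genes of all kinds.

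RNA was sequenced from the subventricular zone (SVZ), a neurogenic niche along the lateral ventricle, and from the striatum of the same 15 C57Bl/6 mice, each mouse giving 1 library per tissue. Ablated mice were 5 NestinTK+ animals that received ganciclovir (GCV). The controls were 3 NestinTK- mice treated with GCV, 3 NestinTK- mice treated with PBS and 4 NestinTK+ mice treated with PBS. In NestinTK+ mice a viral thymidine kinase is driven by the enhancer in the second intron of Nestin, which is active in neural precursors, and NestinTK- mice do not carry it. GCV was given under the skin for 4 weeks, and the kinase turns it into a compound that kills cells copying their DNA, so that loss of endogenous neural precursor cells needs both transgene and drug. The question was what changes in the SVZ and in the nearby striatum when these cells are lost. Mice are called A1 to A5 (NestinTK+ GCV), G1 to G3 (NestinTK- GCV), P1 to P3 (NestinTK- PBS) and T1 to T4 (NestinTK+ PBS), in the order in which the SVZ libraries were deposited. The labels give no sex or batch, and in both tissues GCV mice have lower library numbers than PBS mice, so that GCV and that order cannot be told apart. Mouse numbers fall in 2 series, with all ablated mice, G2, G3, T1, T2 and T4 in the one that begins with 40 and G1, T3 and P1 to P3 in the other, so that ablation and number series are partly confounded.

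M phase genes are transcribed late in the cell cycle, and most of them are silent in resting cells. Their shared timing is set by complexes built on the MuvB core, which bind a promoter element called the cell cycle genes homology region (CHR), often a short way downstream of boxes bound by NF-Y. The products work in sequence. Cyclins with Cdk1 start mitosis, Aurora and Polo kinases build the spindle, kinetochore proteins hold it to the chromosomes, the anaphase-promoting complex releases the sister chromatids and a last group of proteins splits the cell. In the adult brain the SVZ is one of the few places with a steady supply of dividing cells, chiefly transit-amplifying cells and neuroblasts, while most cells of the striatum do not divide.

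SVZ libraries held 8360810 to 9595103 counts in ablated and 8947137 to 21056005 in control mice, and striatal libraries 2626962 to 3371033 and 2780471 to 4693441. The labels call the SVZ samples neural precursor cells, but tissue was dissected, and the sum over 10 markers of medium spiny neurons, the main neurons of the striatum, was 4260.3 to 13739.7 CPM in these libraries. Libraries P1, P2 and T1 stood apart by choroid plexus RNA, with Ttr taking 4.49 to 9.88% of their SVZ counts. The biological coefficient of variation over all genes was 0.939 in the SVZ and 0.251 in the striatum, so that SVZ libraries of 1 group differed much more from each other.

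The promoters of 5 members are shown because these genes carry the main contrasts of the values below. Top2a, Cks1b and Ube2c were among the members with the largest losses in the SVZ, Mki67 was not called lower there, and Cdc20 was the one member called lower in the striatum. Each line gives the 150 bases before the start of transcription, 5′ to 3′ on the gene's strand, from RefSeq on GRCm38.p6. Capitals mark matches to the CHR letters TTTGAA and to the NF-Y box CCAAT, on either strand (TTCAAA and ATTGG on the other one).
Top2a, chr11:99024190-99024339, minus strand: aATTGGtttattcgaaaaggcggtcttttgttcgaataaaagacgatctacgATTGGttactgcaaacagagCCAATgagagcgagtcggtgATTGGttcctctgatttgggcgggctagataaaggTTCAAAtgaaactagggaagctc
Cks1b, chr3:89418292-89418441, minus strand: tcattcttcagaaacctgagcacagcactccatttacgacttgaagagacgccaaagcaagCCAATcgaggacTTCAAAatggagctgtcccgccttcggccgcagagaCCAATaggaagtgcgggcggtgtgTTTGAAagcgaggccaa
Ube2c, chr2:164769779-164769928, plus strand: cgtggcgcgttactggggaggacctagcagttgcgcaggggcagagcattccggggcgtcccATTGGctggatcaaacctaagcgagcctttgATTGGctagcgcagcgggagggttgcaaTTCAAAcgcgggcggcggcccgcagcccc
Mki67, chr7:135716380-135716529, minus strand: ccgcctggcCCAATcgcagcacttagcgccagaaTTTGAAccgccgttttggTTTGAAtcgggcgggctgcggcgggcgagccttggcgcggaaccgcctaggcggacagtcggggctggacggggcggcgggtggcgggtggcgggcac
Cdc20, chr4:118437344-118437493, minus strand: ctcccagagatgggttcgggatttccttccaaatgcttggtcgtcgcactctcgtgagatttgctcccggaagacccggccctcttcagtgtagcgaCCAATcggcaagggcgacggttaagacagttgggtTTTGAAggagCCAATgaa

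In these lines Top2a, Cks1b, Ube2c and Cdc20 have a CHR match within the last 30 bases before the start, and Mki67 has both of its matches farther away. RefSeq gave a window from 250 bases before to 50 bases after the start for 37 of the 44 members. TTTGAA stood in 28 of the 37 windows (75.7%), against 18.1% of the 27025 windows of all genes in that table. A variant of the element, TTTAAA, stood in 9 (24.3%, against 13.2%), and one or the other in 31 (83.8%, against 27.8%). The NF-Y box was found in 29 (78.4%, against 37.9%), and CHR and NF-Y box together in 27 (73%, against 10.9%). Melk, Nuf2, Nusap1 and Tacc3 held none of these letters in the window. A match of letters is a description and not a bound site. Members with and without them were found both among those called lower and among those not called. Tacc3, with no match, was called lower in the SVZ, and Racgap1, with a CHR match and an NF-Y box, was not.

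**Figure D1:**
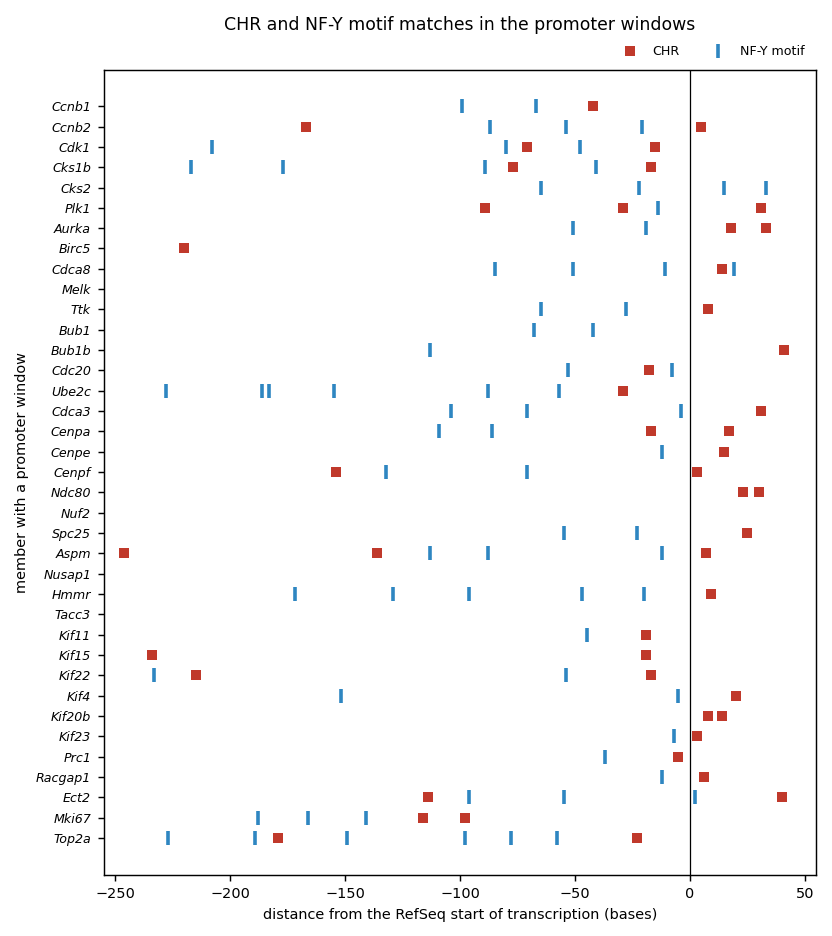
Positions of CHR matches (red squares) and NF-Y box matches (blue bars) in the promoter windows of 37 members, one line per gene, by distance in bases from the RefSeq start of transcription. NF-Y boxes lay mostly before the start, at a median of -67.5 bases, and CHR matches lay closer to it, at a median of -16 bases.

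In the SVZ the 44 members as a group stood lower in ablated mice. The summed level of the 44 members, in CPM scaled by TMM factors, was 87.2 in A1, 84.7 in A2, 118 in A3, 68.4 in A4 and 59.0 in A5. It was 329, 156 and 179 in G1 to G3, 196, 197 and 355 in P1 to P3, and 153, 325, 212 and 201 in T1 to T4. All 5 ablated libraries lay below all 10 control libraries, with means of 83.4 ± 22.5 CPM (SD, n = 5) and 230 ± 76.1 CPM (SD, n = 10). From 8 to 19 members per ablated library had more than 3 counts, against 28 to 41 per control library, and against 28 to 40 when every library was thinned to the same total. Bulk RNA cannot tell fewer dividing cells from less of this RNA in each cell.

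**Figure D2:**
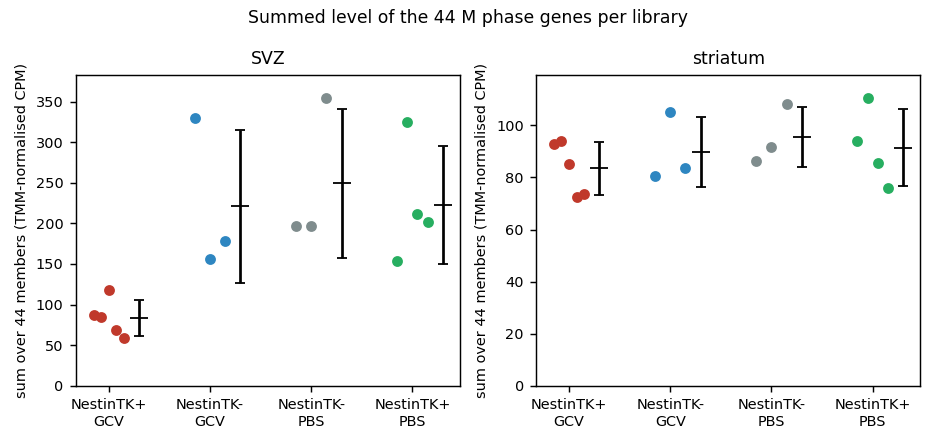
Summed level of the 44 members in each library (points, TMM-normalised CPM) by group, with the mean and SD of each group in black, for the SVZ and the striatum on separate axes starting at 0. In the SVZ the 5 ablated libraries reach 118 CPM at most and the controls start at 153 CPM, while in the striatum the groups overlap.

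Genes were called at the study's thresholds, a nominal p of at most 0.01 and a change of at least 2-fold, with edgeR's quasi-likelihood test of the 5 ablated against the 10 control libraries. In the SVZ 11 of the 43 members tested were called lower (1.22% of all genes tested were called lower), and 0 were called higher (0.373% of all genes). The 11 were Top2a, Pimreg, Cks1b, Spc25, Aspm, Hmmr, Kif20b, Tacc3, Cenpf, Ube2c and Pbk. Their adjusted p-values lay between 0.237 and 0.385 (edgeR's quasi-likelihood test, Benjamini-Hochberg over all genes tested). By this test 0 members and 1 gene of all kinds passed an adjusted p under 0.05. DESeq2 put 9 members under it, a count given without its share of all genes. At an unadjusted p under 0.05 edgeR had 17 members and 1607 genes of all kinds. The calls for Top2a, Pimreg, Cks1b, Spc25, Aspm and Kif20b were made in all 15 fits that each left out 1 mouse, and the other 5 were lost in 3 (Tacc3) to 9 (Pbk) of them. Of these 6, Kif20b was not called by limma-voom and Aspm not among mice of the 40 number series, where 6 of 39 members were called. With NestinTK- GCV mice as the only controls, Cks1b, Spc25, Aspm and Kif20b did not pass the filter. The median log2 fold change of the 43 members was -2.14, with 40 of them below 0, against -0.03 and 51.9% below 0 for all genes tested. With 3 counts put into every ablated library of the 9 members that had at most 3 in each, the median was -1.98. Of the 43 members, 14 had no ablated library above 1 CPM and passed the filter through controls alone, and 7 of the 11 called members were among these.

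**Figure D3:**
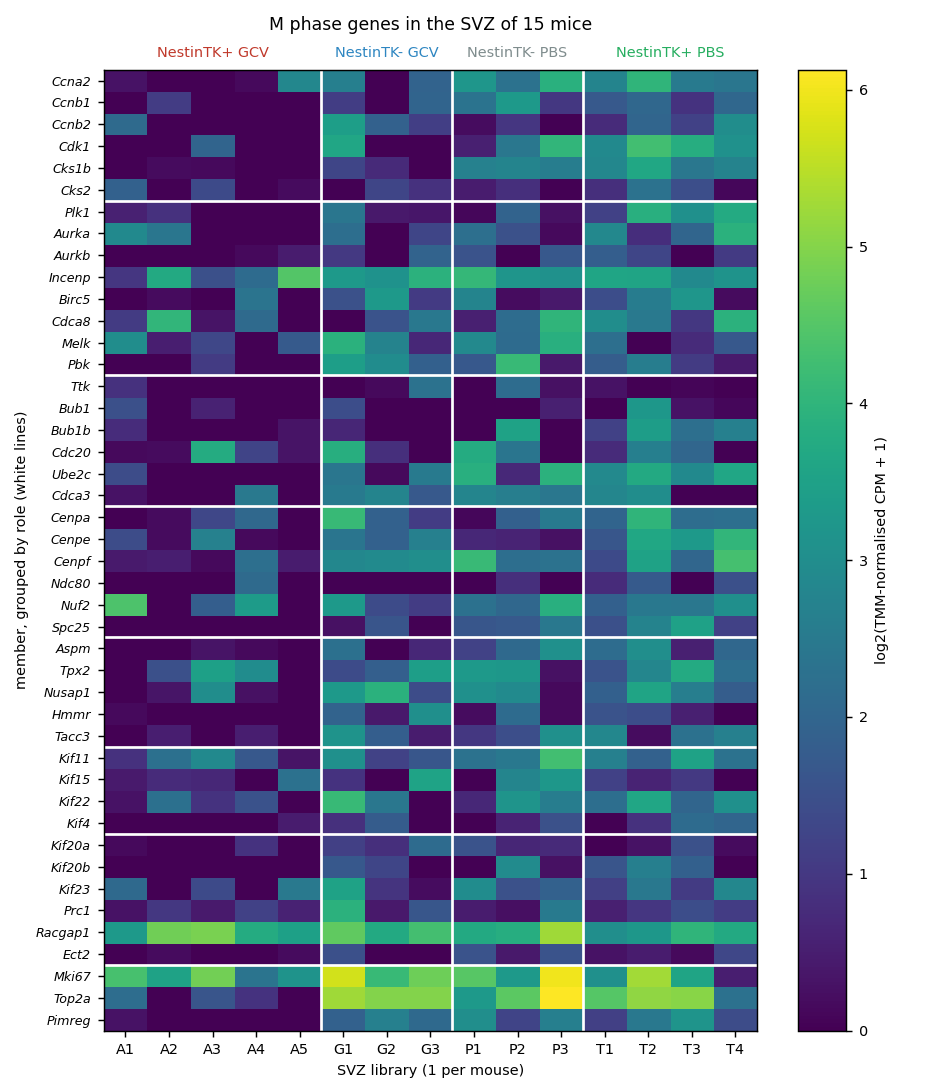
Level of each of the 44 members (rows, grouped by role with white lines) in each of the 15 SVZ libraries (columns, grouped by genotype and treatment), as log2(TMM-normalised CPM + 1). Dark cells fill much of the NestinTK+ GCV columns, in which 107 of 220 values were 0 counts against 54 of 440 in controls, and the rows of Racgap1, Mki67 and Incenp stay bright in most of them.

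Among chromosome structure and proliferation markers, Top2a encodes topoisomerase II alpha, which untangles the sister chromatids. Its counts were 30, 0, 17, 8 and 0 in A1 to A5, and in controls they ran from 56 to 626 with a median of 426.5. The groups did not overlap, the closest pair being A1 at 3.60 CPM and T4 at 3.91 CPM. Mean levels were 1.31 ± 1.54 CPM in the 5 ablated and 29.1 ± 17.7 CPM in the 10 control libraries (SD), and edgeR's log2 fold change was -4.46 (SE 0.901). Pimreg, a mitotic regulator that is a substrate of the anaphase-promoting complex, had 2, 0, 0, 0 and 0 counts in A1 to A5 and 16 to 140 in controls (median 45.5). Again every ablated library was lower than every control. Top2a and Pimreg were the 2 members of 43 whose groups did not overlap, as 0.147% of all genes tested were lower without overlap.

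Mki67 encodes the Ki-67 protein, the most used marker of cycling cells, and behaved otherwise. Its counts were 160, 76, 224, 39 and 64 in A1 to A5, and 6 to 711 in controls (median 239.5), the lowest being T4. The ablated libraries lay inside the range of the controls, at 13.9 ± 9.40 CPM (SD, n = 5) against 24.5 ± 20.4 CPM (SD, n = 10), and the log2 fold change of -0.82 (SE 0.709) was not called. In A2 and A5, where Top2a had 0 counts, Mki67 had 76 and 64.

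Of the 6 cyclins, Cdk1 and Cks genes, 1 was called lower and all 6 had values below 0. Cks1b, a small subunit that binds Cdk1 and other cyclin-dependent kinases, had 0, 1, 1, 0 and 0 counts in A1 to A5 and 0 to 155 in controls (median 74). Its lowest controls were all NestinTK- GCV mice, with 20, 6 and 0 counts, so that the groups overlapped at G3. Cdk1 itself, the kinase that drives entry into mitosis, had 24 counts in A3 and 0 in the other 4 ablated libraries, against 0 to 246 in controls, with a log2 fold change of -3.68 (SE 1.65) that was not called. The B-type cyclins, which activate Cdk1, gave -3.59 (SE 1.55) for Ccnb1 and -1.98 (SE 1.58) for Ccnb2, and Ccna2, whose exons overlap those of a gene on the other strand, gave -2.28 (SE 1.31). None of these 3 was called. Cks2, the other Cks gene, had 23, 0, 13, 0 and 1 counts in A1 to A5 against 0 to 53 in controls (median 10.5). Both groups of Cks2 overlapped through most of their range, and its log2 fold change was -0.15 (SE 1.40).

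Of the 8 mitotic kinases and members of the chromosomal passenger complex, only Pbk was called lower and all 8 had values below 0. Pbk, a kinase active in mitosis, had 9 counts in A3 and 0 in the other 4 ablated libraries, against 3 to 344 in controls (median 34). The ranges touched, because P3 and T4 had 3 and 5 counts. Aurkb, the kinase of the passenger complex, had 0, 0, 0, 1 and 3 counts in A1 to A5 and 0 to 38 in controls (median 17), and was not called at a log2 fold change of -3.63 (SE 1.68). Plk1, the Polo kinase of mitotic entry and spindle assembly, gave -3.99 (SE 1.56), also not called. Incenp, the scaffold of the passenger complex, had 8, 87, 15, 32 and 172 counts against 69 to 207 in controls (median 134.5). In CPM, A5 lay above all controls, A2 among them and A1, A3 and A4 below them all, and its log2 fold change was -0.32 (SE 0.624). Cdca8, Aurka, Melk and Birc5 lay between -0.40 and -1.93 and were not called.

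In the spindle checkpoint and anaphase-promoting complex, 5 of 6 genes were tested and 1 was called. Ube2c, the ubiquitin-conjugating enzyme of the anaphase-promoting complex, had 14 counts in A1 and 0 in the other 4 ablated libraries, against 1 to 178 in controls (median 98.5). Only G2 and P2 among the controls lay below A1, and the log2 fold change was -4.42 (SE 1.423). Its exons overlap those of Tnnc2 on the other strand, and without a stated strand setting their reads cannot be told apart. Cdc20, an activator of the same complex, had 104 counts in A3 and 1 to 13 in the other ablated libraries, against 0 to 187 in controls, and gave -0.45 (SE 1.44). The checkpoint kinases and their partners were uneven, with -3.93 (SE 1.91) for Bub1b and -1.24 (SE 1.85) for Bub1, neither called. Cdca3 gave -2.07 (SE 1.51), and Ttk, a checkpoint kinase, did not pass the filter.

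At the centromere and kinetochore 2 of 6 genes were called. Spc25, a subunit of the Ndc80 complex that holds microtubules, had 0 counts in all 5 ablated libraries, and 0 to 178 in controls (median 26), with G3 the one control at 0. Cenpf, a large kinetochore protein, had 3, 3, 1, 35 and 3 counts in A1 to A5 and 21 to 271 in controls (median 81). Only A4 reached into the range of the controls, and the log2 fold change was -2.95 (SE 0.945). Ndc80 and Nuf2, the partners of Spc25 in the same complex, did not share its pattern of counts. Ndc80 had 31 counts in A4, 0 in the other ablated libraries and 0 to 31 in controls (median 0), a log2 fold change of 0.25 (SE 1.73). Nuf2 had 168, 0, 21, 87 and 0 counts against 15 to 124 in controls, and gave 0.33 (SE 1.02). The difference between these genes was not tested. Cenpa, the histone variant that marks centromeres, gave -2.44 (SE 1.28) and the kinetochore motor Cenpe gave -1.78 (SE 1.23), neither called.

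Of the 5 spindle assembly genes 3 were called, the most of any role. Aspm, which focuses spindle poles, had 0, 0, 2, 1 and 0 counts in A1 to A5 and 0 to 97 in controls (median 45.5). Hmmr, a spindle and hyaluronan-binding protein, had 1, 0, 0, 0 and 0 counts against 0 to 97 (median 15.5). For Hmmr the controls were scattered, since T4, P3, P1 and G2 had 0 to 3 counts as well. Tacc3, which with clathrin bridges spindle microtubules, had 0, 3, 0, 4 and 0 counts against 2 to 110 (median 52), a log2 fold change of -4.35 (SE 1.39), and its exons overlap those of Tmem129 on the other strand. Nusap1 and Tpx2, which stabilise and seed spindle microtubules, gave -2.005 (SE 1.25) and -0.58 (SE 1.10), not called.

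None of the 4 kinesins of spindle and chromosomes was called, although all 4 values were below 0. Kif4, a motor that compacts chromosome arms and the midzone, had 0, 0, 0, 0 and 3 counts in A1 to A5 and 0 to 59 in controls (median 11), a log2 fold change of -3.94 (SE 1.78). Kif22 gave -2.14 (SE 1.19), Kif15 -1.38 (SE 1.51) and Kif11, the motor that pushes spindle poles apart, -1.14 (SE 0.840). Of the 6 genes of the central spindle and cytokinesis, 1 was called. Kif20b, a kinesin of the midzone, had 0 counts in all 5 ablated libraries and 0 to 141 in controls (median 20), 3 of the controls also being at 0. Ect2, which activates RhoA for the cleavage furrow, had 0, 1, 0, 0 and 1 counts against 0 to 26 (median 6). Racgap1, which binds Ect2 at the central spindle, was the highest member in ablated libraries. It had 74, 193, 235, 119 and 82 counts in A1 to A5 and 95 to 339 in controls (median 210.5). The groups overlapped, at 17.5 ± 9.59 CPM (SD, n = 5) against 16.1 ± 8.90 CPM (SD, n = 10), and the log2 fold change was 0.12 (SE 0.442). Kif20a, Prc1 and Kif23 lay between -0.93 and -2.39, not called.

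Lower limits can be given for the 9 members of 43 that had at most 3 counts in every ablated library, as 2.68% of all genes tested did. A gene with so few counts passes the filter through controls alone, as all 9 did. The direction of their difference was thus fixed by the selection. The limit puts 3 counts into each ablated library and compares the mean CPM with that of the pooled controls. By this floor Spc25 was at least 8.24-fold lower and Kif20b at least 5.60-fold lower in ablated mice than in pooled controls. The same limit was 12.6-fold for Cks1b, 11.0-fold for Pimreg, 8.34-fold for Aspm, 5.00-fold for Hmmr, 3.57-fold for Aurkb, 3.49-fold for Kif4 and 2.25-fold for Ect2. For the last 7, which had a few ablated counts, the ratio of pooled levels can be given with an exact 95% interval that covers counting error only. It was 98.2 (27.1 to 813) for Cks1b, 80.8 (22.2 to 668) for Pimreg and 40.8 (13.9 to 199) for Aspm. With 1 ablated count Hmmr gave 81 (14.4 to 3213). Aurkb gave 12.4 (4.76 to 46.1), Kif4 17.3 (5.84 to 84.9) and Ect2 16 (4.32 to 134). Aurkb, Kif4 and Ect2 were not called by edgeR, whose test also covers the spread between mice. No limit was worked out against the NestinTK- GCV mice alone, which had means of only 0.699 CPM for Cks1b and 0.769 CPM for Spc25. In NestinTK- PBS and NestinTK+ PBS mice these were 5.45 and 6.93 CPM for Cks1b, and 2.97 and 4.77 CPM for Spc25. The NestinTK- GCV group was also the lowest control for Aspm, Kif20b and Pimreg. It was the highest for Hmmr and lay between the others for Aurkb, Kif4 and Ect2.

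**Figure D4:**
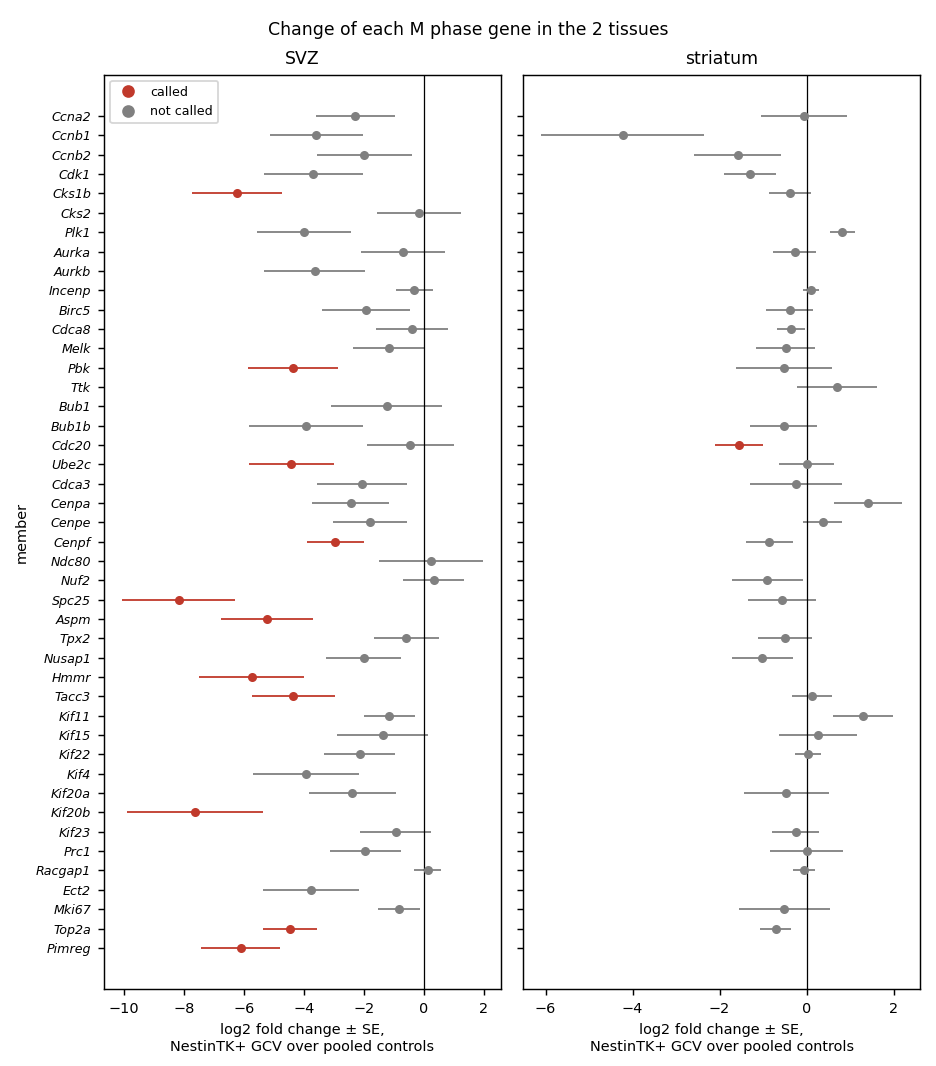
Log2 fold change of each member tested (points, with SE) in ablated mice over pooled controls, by edgeR, in the SVZ and in the striatum. Red points passed the call rule, 11 in the SVZ and 1 in the striatum, and members with no point did not pass the filter. Fitted values of members at or near 0 counts in ablated libraries depend on edgeR's prior count and are not bounds.

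Within the control group the counts of single members jumped between mice. In controls 16 of the 44 members had 0 counts in one SVZ library and more than 100 in another, and in ablated mice 2 did (Cdca8 and Nuf2). By mean level Racgap1, Mki67 and Incenp were the 3 highest members in ablated mice, a choice made after their values were seen. They made up 29.7 to 66.8% of the summed member level in ablated libraries and 10.2 to 33.3% in controls. Without them the sum was 19.6 to 59.7 CPM in ablated mice and 119 to 268 CPM in controls. Per kilobase of exon, the control means of the SVZ were highest for Cks1b at 4.10 CPM per kb and Top2a at 3.23 CPM per kb, and lowest for Ndc80 at 0.0859 CPM per kb.

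The single control groups were then compared from 1 fit of the 4 groups, to separate transgene, drug and their combination. Against NestinTK- GCV mice, which had the drug but no kinase, 4 members were called lower (0.574% of all genes), namely Top2a, Pimreg, Spc25 and Hmmr. The median of the 43 members was -2.46, with 38 below 0. Without G1, whose summed level was 329 CPM against 156 and 179 CPM in G2 and G3, it was -1.21 with 31 of 42 below 0. Against NestinTK+ PBS mice, which had the kinase but no drug, 8 were called lower (0.965% of all genes), namely Top2a, Pimreg, Cks1b, Spc25, Aspm, Kif20b, Ube2c and Plk1, with a median of -2.23 and 38 below 0. These comparisons share the ablated libraries. Top2a gave -4.64 (SE 1.03) against NestinTK- GCV and -4.11 (SE 0.982) against NestinTK+ PBS. Pimreg gave -6.01 (SE 1.498) and -6.04 (SE 1.47), fitted values that depend on edgeR's prior count because its ablated libraries were at or near 0.

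Between control groups 0 members were called lower. GCV in NestinTK- mice gave 0 members called lower (0.794% of all genes) and a median of -0.18, with 26 of 43 below 0. This median was -0.75 without G1, with 30 of 42 below 0, 0.15 without P3 and 0.22 without the 3 mice with most Ttr. The transgene under PBS gave 0 called lower (0.0733% of all genes) and a median of -0.06, with 22 below 0, which was 0.34 without P3 or without the mice with most Ttr. For Top2a these values were -0.03 (SE 1.07) and -0.56 (SE 0.997). At an unadjusted p under 0.05 edgeR had 0 members for GCV and 1 for the transgene, DESeq2 called 0 lower in both contrasts and limma-voom 1 and 0. The genotype by treatment interaction, which tests the joint effect of kinase and drug, called 0 members lower (0.391% of all genes), with a median of -2.63 and 35 of 43 below 0, or -1.77 and 28 of 42 without G1. At an unadjusted p under 0.05 it had 7 members, and DESeq2 called 3 and limma-voom 4. These counts, like those for GCV and the transgene above, are given without their share of all genes. The interaction estimates were -4.08 (SE 1.46) for Top2a, -5.76 (SE 2.05) for Pimreg and -6.88 (SE 2.46) for Spc25. Each had a Benjamini-Hochberg adjusted p of 0.942 in edgeR. For Mki67 the estimate was -0.04 (SE 1.32). Pimreg had 2 counts over all ablated libraries and Spc25 had 0, so that their fitted values depend on edgeR's prior count and are not bounds.

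**Figure D5:**
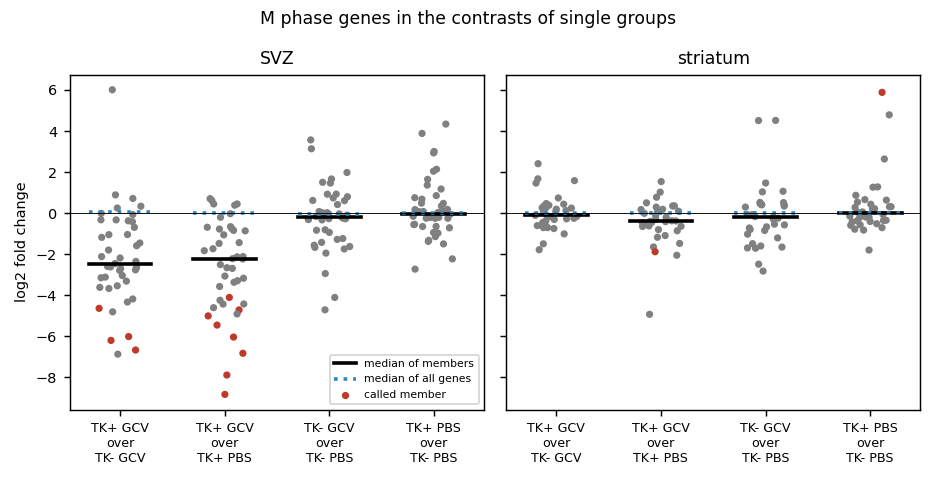
Log2 fold changes of the members tested in 4 contrasts of single groups in the SVZ and the striatum (points, called members in red), with the median of the members (black bar) and of all genes tested (blue dotted bar). In the SVZ the member medians are -2.46 and -2.23 in the contrasts of ablated mice and -0.18 and -0.06 between control groups.

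A longer list of 118 further M phase genes, from kinetochore, checkpoint, condensin, cohesin, spindle and cytokinesis, had 108 tested in the SVZ. One was called lower, against 1.22% of all genes, 0 were called higher, and 75 were below 0, with a median of -0.34. At an unadjusted p under 0.05 there were 22, to be read beside the count of all genes given above for this comparison. The gene called was Cenpm, a centromere protein, at -7.07 (SE 2.15). The summed level of the 118 genes overlapped, at 2719.9 to 3056.6 CPM in ablated mice and 2842.3 to 3353.0 CPM in controls. Among 23 regulators of M phase transcription, including the MuvB core and E2F factors, 0 were called and the median was -0.05. In a list of 44 genes of DNA replication 2 of 43 tested were called lower, with a list median of -0.70. They were the DNA ligase Lig1 at -3.01 (SE 0.907) and Esco2, a cohesin acetyltransferase of S phase, at -7.27 (SE 2.05). Esco2 had 0 counts in every ablated library, so that its fitted value depends on edgeR's prior count. The summed level of the replication list overlapped, at 275 to 412 CPM in ablated mice and 332 to 532 CPM in controls.

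Some markers of the cell types that divide in the SVZ were also called lower, where 1.22% of all genes were. Of 15 neuroblast markers 5 were called, including Dcx at -1.39 (SE 0.365) and Dlx1 at -2.09 (SE 0.528), although the summed level overlapped, at 976 to 1262.8 CPM in ablated mice and 876 to 1580.0 CPM in controls. Of 13 markers of activated stem or transit-amplifying cells 2 were called lower, Sox4 and Gsx2, with sums of 108 to 257 and 166 to 340 CPM. No marker of these lists was at 0 in every ablated library. Choroid plexus markers had 5 of 10 called lower, with sums of 18.5 to 257 CPM in ablated mice and 15.8 to 104036.5 CPM in controls. In NestinTK- GCV mice alone these sums were 15.8 to 193 CPM, overlapping those of ablated mice. Ependymal markers had 2 of 10 called lower, with sums of 29.5 to 253 and 99.6 to 431 CPM. Without P1, P2 and T1, the mice with most Ttr, 7 members were called lower instead of 11, while the member median was -2.40 with 41 of 43 below 0. Cenpf, Pbk, Tacc3 and Ube2c lost the call in this smaller fit at log2 fold changes of -2.99, -4.005, -4.455 and -4.47. Top2a, Pimreg, Cks1b, Spc25, Aspm, Hmmr and Kif20b kept it. The lists of astrocytes, oligodendrocytes and their precursors, microglia, endothelium and medium spiny neurons had 0 genes called in the SVZ. The part of each cell type in the values of the members was not tested.

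In the striatum, where counts come from the 3′ end of transcripts and cannot be set beside those of the SVZ, the members were low and changed little. Their summed level was 92.7, 94.0, 85.1, 72.6 and 73.5 CPM in A1 to A5 and 75.8 to 111 CPM in controls (median 89.2), with overlap. Of 34 members tested 1 was called lower (0.240% of all genes) and 0 higher (0.454% of all genes). The median log2 fold change was -0.37, with 24 of 34 below 0, against 0.00 and 49.5% for all genes. At an unadjusted p under 0.05 edgeR had 5 members, and DESeq2 and limma-voom also called 1 lower, counts given without their share of all genes. Cks2, Aurkb, Bub1, Ndc80, Aspm, Hmmr, Kif4, Kif20b, Ect2 and Pimreg did not pass the filter, and of the 11 members called in the SVZ 7 were tested here and 0 called.

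The member called by edgeR was Cdc20, with 1, 2, 0, 5 and 5 counts in A1 to A5 and 5 to 20 in controls (median 8.5). The groups met at 5 counts, the call was lost in 11 of 15 fits that each left out 1 mouse, and the log2 fold change was -1.56 (SE 0.555, adjusted p = 0.312 by edgeR's quasi-likelihood test). Its exons overlap those of Elovl1 on the other strand. Plk1 had the smallest p, with 26, 15, 15, 24 and 14 counts against 9 to 22 (median 14.5). It stood higher at 0.82 (SE 0.288), under the 2-fold limit of a call, and the groups overlapped. Ccnb1 had 0 counts in all 5 ablated libraries, but 6 of the 10 controls were at 0 too and the highest had 9, so that a floor of 3 counts per library gave no lower limit above 1, and 3 counts over the whole ablated group gave 3.15-fold. Ccnb2 had 1, 0, 0, 0 and 2 counts against 0 to 7 in controls (median 2), with no limit above 1 at 3 counts per library either. Ube2c, Prc1 and Ccna2 had the largest p. Their counts were 3, 0, 8, 2 and 4 against 1 to 8 for Ube2c, 7, 6, 0, 1 and 4 against 0 to 13 for Prc1, and 0, 0, 0, 3 and 5 against 0 to 5 for Ccna2. At this depth no difference was detectable for these 3. Top2a had 6, 10, 9, 19 and 5 counts against 11 to 32 in controls (median 21), and gave -0.72 (SE 0.346), not called.

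Against NestinTK- GCV mice 0 striatal members were called lower (0.233% of all genes) and 0 had an unadjusted p under 0.05 in edgeR, and DESeq2 and limma-voom called 0. Against NestinTK+ PBS mice 1 was (0.610% of all genes), Cdk1, at -1.88 (SE 0.612), with 5, 1, 2, 2 and 5 counts in A1 to A5 against 14, 20, 16 and 4 in T1 to T4. The 2 groups overlapped through T4. GCV in NestinTK- mice and the interaction gave 0 members called lower (1.80% and 1.15% of all genes). At an unadjusted p under 0.05 they had 3 and 2 members, and DESeq2 called 0 and 1, counts given without their share of all genes. The transgene under PBS gave 0 called lower (0.188% of all genes) and 1 higher (0.642% of all genes). The last was Mki67, with 5, 4, 9 and 12 counts in T1 to T4 and 0 in P1 to P3. Since its control group was at 0 and the counts were near the floor of 3, that difference rests on few reads.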

How the data were processed

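Per the labels and the study's methods, the SMART-Seq v4 kit with 10 amplification cycles was used for the SVZ and QuantSeq 3′ FWD for the striatum. The authors trimmed reads (Trimmomatic 0.36 in the submitters' processing notes), aligned them to mm10 with STAR 2.5.3a, used featureCounts to assign them to genes and deposited the raw counts. The treatment of strand and of reads with several matches is not given in the sources used here. Each tissue was fitted alone with edgeR 4.0.16 (limma 3.58.1, DESeq2 1.42.0, R 4.3.3) on genes above 1 CPM in at least 3 libraries, with TMM factors and Benjamini-Hochberg adjustment over all genes tested. The study used limma, which was an alternative here, beside RLE factors, no filter, DESeq2, thinned counts, other controls and each mouse left out. The SE given for edgeR is the log2 fold change over the square root of the F statistic of the test. Scripts were tested on simulated data. All 44 members could be named. Counts in every ablated library, with the range of the controls, are given for members with at most 3 counts in each ablated library that passed the filter. They are also given for SVZ calls and for the 3 smallest and 3 largest p per tissue. Values of other members were chosen after they were seen. Genes of other lists are named where called. Members and lists were chosen with earlier results of these data known. Promoters came from RefSeq, gene positions from the GRCm38 annotation. Intervals and floors cover counting error only. Labels name 1 mouse per library, so p-values measure the spread between mice.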

Additional observations from a re-analysis of the deposited data

Results flagged for a closer look

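Dixon's rule for a library far from the rest was applied to 42 groups of libraries, over called members and the summed level. It flagged 5, all of them single ablated SVZ libraries above the other 4. Where the other 4 libraries are at 0 any count is flagged, so that the number of flags cannot be set against a chance rate. Cenpf stood at 3.74 CPM in A4 (35 counts), with the next library at 0.418 CPM. Ube2c stood at 1.68 CPM in A1 (14 counts) and Pbk at 1.1 CPM in A3 (9 counts), each with the other 4 ablated libraries at 0. Pimreg at 0.24 CPM (2 counts) and Hmmr at 0.12 CPM (1 count), both in A1, were flagged because the other 4 libraries were at 0.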

How the results depend on the processing

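Within a tissue no paired analysis was possible because each mouse gave 1 library. The same mice gave both tissues, but these were made with different kits and fitted apart, so that this pairing was not used. In the SVZ comparison with pooled controls, RLE factors, no filter and thinned counts called the same 11 members lower, limma-voom called 11 of which 9 were shared (Ccnb1 and Nusap1 gained, Hmmr and Kif20b lost), and DESeq2 called these 11 and 3 more (Ccnb1, Cdk1 and Plk1), 14 in all, 9 of them at an adjusted p under 0.05, where edgeR gave 0. The count was 2 with NestinTK- GCV mice as the only controls (26 members tested), 7 with NestinTK+ PBS mice as the only controls, 6 among the mice whose numbers begin with 40 (Aspm, Cenpf, Pbk, Tacc3 and Ube2c lost) and 7 without the 3 mice with most Ttr. Leaving out each mouse gave 8 to 11 and a median log2 fold change of -3.31 (without A4) to -2.05, and NestinTK- GCV controls alone gave a median of -1.51. Under the settings above, Cks1b, Spc25, Aspm and Kif20b did not pass the filter with NestinTK- GCV mice as the only controls. Aspm also had no call in the 40 number series, and Kif20b none by limma-voom. In the 15 fits that each left out 1 mouse, Top2a, Pimreg, Cks1b, Spc25, Aspm and Kif20b all kept the call. Pbk lost it without A1, A2, A4, A5, G1, G2, P2, T1 or T2 (log2 fold changes over all 15 fits of -8.86 to -3.89), Cenpf without A1, A2, A3, A5, P1 or T4 (-4.58 to -2.66), Ube2c and Hmmr without A2, A3, A4 or A5 (-9.50 to -4.10 and -7.49 to -5.15), and Tacc3 without A1, A3 or A5 (-5.04 to -4.04). Their adjusted p-values by edgeR ran from 0.229 to 0.507. Against NestinTK- GCV mice limma-voom called 7, and leaving out mice gave 4 to 7 (7 without A3). Against NestinTK+ PBS mice leaving out mice gave 5 (without A5, T2 or T3) to 9. For GCV in NestinTK- mice limma-voom called 1. The SVZ interaction called 1 without the filter, 3 by DESeq2, 4 by limma-voom and 0 to 4 without single mice (4 without A1, 3 without A3). In the striatum the count against pooled controls was 0 with no filter, with NestinTK- GCV controls, in the 40 number series, without the Ttr mice, after thinning and at an adjusted p under 0.05, and 0 to 1 without single mice, Cdc20 losing its call in 11 of 15 fits (log2 fold changes of -1.93 to -1.27, every mouse but A4, A5, G2 and T1). Against NestinTK+ PBS mice it was 2 with no filter, 0 by limma-voom or without the Ttr mice and 0 to 2 without single mice, and the striatal interaction gave 1 with no filter or by DESeq2 and 0 to 1 without single mice. The counts of members called in these settings are given without the share of all genes called. The number of genes tested also differed between settings, so that these counts cannot be set against a background rate. The cause of the changes between settings was not tested. No member's direction reversed where it was called. In another setting the floor was 3 counts over the whole ablated group in place of 3 per library. The lower limits against pooled controls then rose to 63.2-fold for Cks1b and 41.5-fold for Spc25. They do not hold against NestinTK- GCV mice alone, whose means were lower, at 0.699 CPM for Cks1b and 0.769 CPM for Spc25. Wide spread between SVZ libraries, few counts per member in the striatum and 3 mice in each NestinTK- group limit what these tests can show.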
